A study of Mus musculus with 6 samples.

Results

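The genes described here encode the receptors for the fast and slow transmitters glutamate, GABA and glycine. They were chosen by symbol from the table of all genes: the AMPA, kainate, NMDA and delta subunits, the metabotropic glutamate receptors, the GABA-A alpha, beta and gamma subunits, both GABA-B subunits and the glycine receptor subunits. That gave 44 of 17971 genes. The filter on low counts let 38 of them into the tests. They divide into 4 AMPA, 5 kainate, 7 NMDA, 2 delta, 8 metabotropic glutamate, 11 GABA-A, 2 GABA-B and 5 glycine receptor genes.

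RNA came from dorsal root ganglia (DRG) of male mice at E13.5. The 3 cKO samples had the genotype Wnt1-cre+/-;Ybx1fl/fl, and the 3 Ctrl samples came from littermates with Ybx1fl/fl and no Cre, so both groups carried floxed Ybx1. Wnt1-driven Cre acts in the neural crest lineage, which forms the neurons and glia of these ganglia, and not in their vessels or blood cells. Since only cKO carried Cre, effects of the Cre transgene and of Ybx1 loss cannot be told apart. Ybx1, which encodes an mRNA-binding cold-shock domain protein, stood at 927, 809 and 817 CPM (counts scaled to library size by TMM) in Ctrl and at 137, 122 and 108 in cKO, so each library went with its label. The ganglia expressed all 11 sensory neuron markers listed, such as Prph and Isl1. Their summed TPM (a transcript level per length, scaled to the same sum in each library) was 6680 to 7013 in Ctrl and 6500 to 7299 in cKO. The series text calls the samples biological, and the sources used here do not say whether ganglia were pooled. Library cKO replicate 1 held a summed TPM of 58973 for erythroid genes against 16162 to 27484 in the other 5.

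Glutamate is the transmitter of primary sensory neurons, which release it in the spinal cord. AMPA, kainate and NMDA receptors are tetrameric cation channels, and the metabotropic receptors signal through G proteins. GABA-A and glycine receptors are pentameric chloride channels, and GABA-B is an obligate heterodimer that couples to G proteins and damps transmitter release. Sensory neurons carry several of these receptors on their cell bodies and terminals, and in embryonic neurons with high internal chloride GABA depolarises the cell.

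In these ganglia the receptor transcripts were led by the GABA-B subunits. The summed TPM of all 44 genes was 510, 596 and 567 in Ctrl and 445, 582 and 567 in cKO, lowest in both groups in the library numbered 1. GABA-B genes made up 40.4% ± 0.719 of that sum in Ctrl and 39.7% ± 1.16 in cKO (SD, n = 3 per group). GABA-A genes followed with 20.4% ± 0.461 and 19.6% ± 1.27, and kainate genes with 18.6% ± 0.20 and 20.6% ± 0.495. The AMPA genes held 7.54% ± 0.884 in Ctrl and 7.58% ± 0.031 in cKO, the metabotropic glutamate genes 5.56% ± 0.0401 and 5.37% ± 0.165, the NMDA genes 4.90% ± 0.161 and 4.46% ± 0.0748 and the glycine genes 1.57% ± 0.169 and 1.54% ± 0.215. The kainate share was 18.5% to 18.9% in the Ctrl libraries and 20.2% to 21.1% in the cKO libraries, and these ranges did not overlap. The NMDA share (4.72% to 5.03% in Ctrl, 4.40% to 4.54% in cKO) did not overlap either. The summed TPM of the kainate genes itself overlapped, at 94.4 to 112 in Ctrl and 89.6 to 120 in cKO. These shares were not tested. GABA-A exceeded kainate in every Ctrl library and in cKO replicate 1, while kainate exceeded GABA-A in cKO replicates 2 and 3. Of the 44 genes, 29 had a mean TPM of at least 1 and 10 of at least 10, and Gabbr1 alone passed 100. Over all 17971 genes, 75.5% reached 1 and 53.1% reached 10, against 65.9% and 22.7% of the receptor genes.

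**Figure D1:**
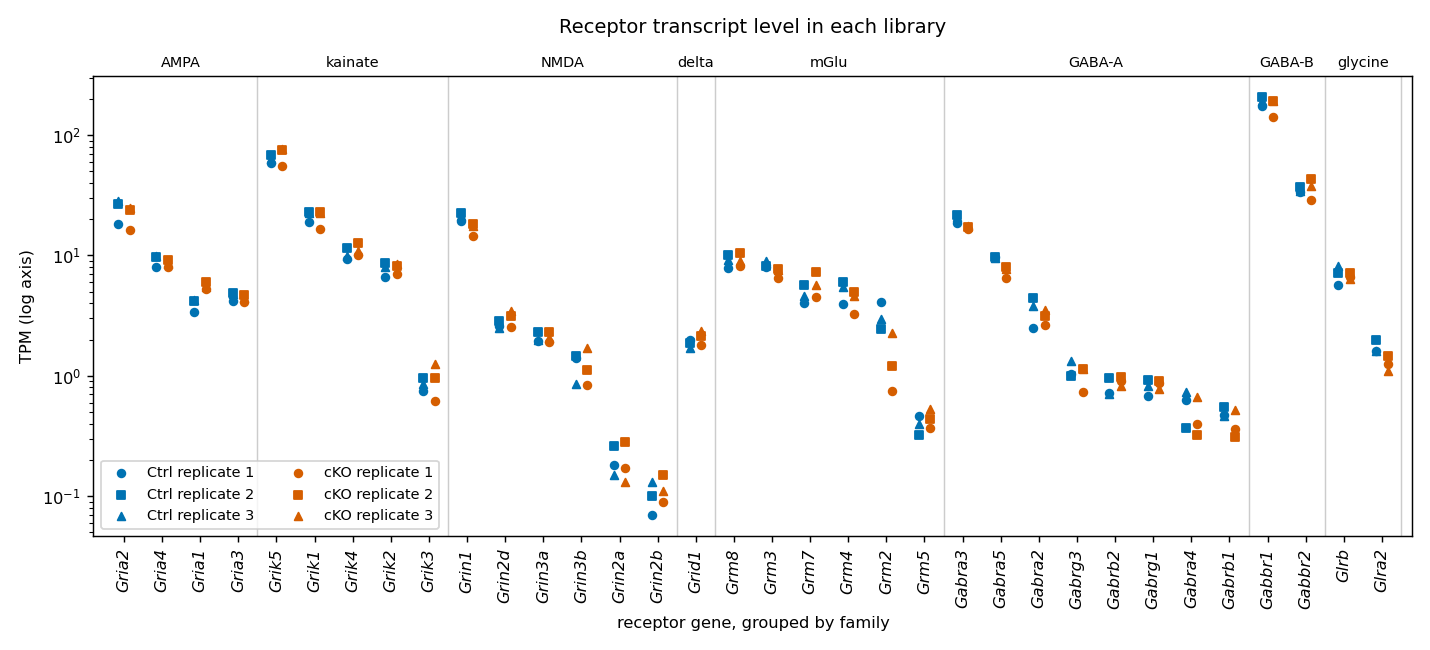
TPM (log axis) of 34 tested receptor genes in each of the 6 libraries, grouped by receptor family; blue marks are Ctrl, orange marks cKO, and the marker shape gives the replicate number. Gabbr1 is highest at 142 to 206 TPM and Grin2b lowest at 0.07 to 0.15, and for most genes the groups overlap.

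The comparison asked which of these transcripts differ between cKO and Ctrl ganglia. Without the replicate number in the model, 0 of the 38 tested members passed (edgeR adjusted p; background 0.481% of all tested genes, 0.112% higher and 0.37% lower), with 1 higher and 7 lower at an unadjusted p under 0.05 (21.1%, against 10.7% of all tested genes). limma-voom called 0 as well, DESeq2 called 2 (Grin1 and Grm2, both lower; background 1.19%), and edgeR with no filter on low counts called 2 (Gria1 and Grin1; background 0.713%). With the replicate number as a block, 6 passed, against a background of 5.33% of all tested genes. Of these, 1 was higher (Gria1; background 1.76%) and 5 were lower (among them Gria2, Grin1, Gabra3 and Gabra5; background 3.56%). The changes were small, between -0.39 and 0.47 on the log2 scale. In bulk ganglia, less RNA per cell and fewer cells of a type cannot be told apart.

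Over the 38 genes the median log2 fold change was -0.05, against 0.0044 over all 14338 genes tested; 16 were positive and 22 negative. The groups did not overlap in CPM for 8 members (background 16.6%), of which 1 was higher in cKO (background 7.83%) and 7 were lower (background 8.77%). In 13 members (34.2%) cKO was below Ctrl in all 3 same-numbered pairs, against 20.3% of all tested genes, and in 5 (13.2%) it was above in all 3, against 19.6%. The GABA and glycine receptor genes had a median of -0.17 over 15 tested genes, 12 of them negative, and the glutamate receptor genes a median of 0.0048 over 23, of which 10 were negative. The difference between these groups of genes was not tested.

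**Figure D2:**
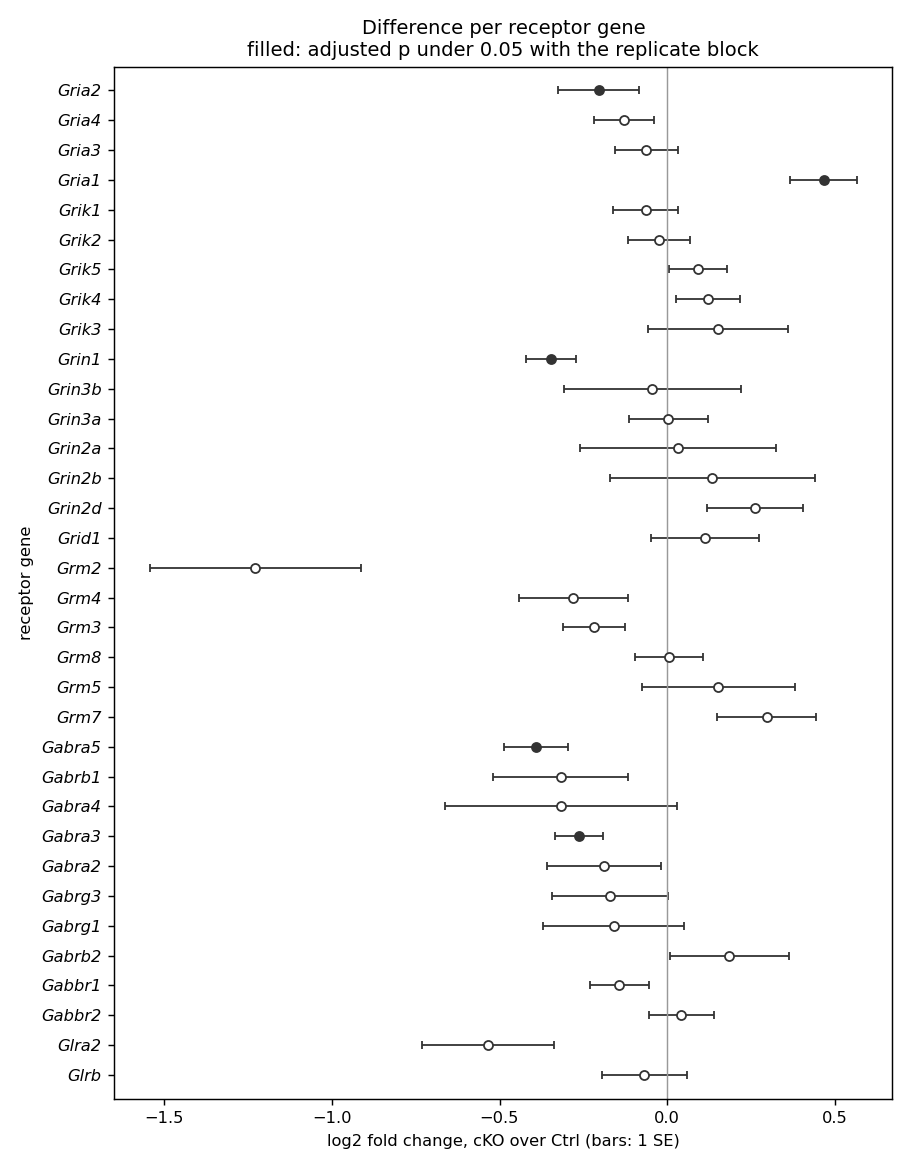
Log2 fold change of cKO over Ctrl with its SE for 34 tested receptor genes, grouped by family and ordered by size, from edgeR without the replicate block; filled points had an adjusted p under 0.05 with the block. Gria1 (0.47) is the filled point above 0, the other 4 lie between -0.39 and -0.20, and the unfilled Grm2 lies lowest at -1.23 with an SE of 0.31.

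For Grin1, Gabra3 and Grm2, whose cKO values lay below all Ctrl values, the 250 bases before the RefSeq start are shown so that the regulatory sequence stands beside the counts (GRCm38.p6, minus strand in each case, 5′ to 3′). These windows lie outside the annotated gene, and the 3 genes were chosen after their values were seen. Grin1 is at chr2:25319188-25319437, Gabra3 at chrX:72656920-72657169 and Grm2 at chr9:106656110-106656359. Capitals mark matches on either strand to the Y-box core ATTGG, the inverted CCAAT element after which Y-box proteins were named, the GC box GGGCGG, the CRE TGACGTCA, the TATA box TATAAA, and the left part (TTCAGCACC) and right part (GGACAGC) of the RE1 element, which were added after the Grm2 sequence had been seen.
Grin1: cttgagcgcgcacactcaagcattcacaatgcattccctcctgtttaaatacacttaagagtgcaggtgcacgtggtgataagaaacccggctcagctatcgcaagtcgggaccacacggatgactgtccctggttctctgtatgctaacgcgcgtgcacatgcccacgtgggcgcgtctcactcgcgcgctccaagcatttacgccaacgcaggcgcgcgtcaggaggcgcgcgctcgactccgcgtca
Gabra3: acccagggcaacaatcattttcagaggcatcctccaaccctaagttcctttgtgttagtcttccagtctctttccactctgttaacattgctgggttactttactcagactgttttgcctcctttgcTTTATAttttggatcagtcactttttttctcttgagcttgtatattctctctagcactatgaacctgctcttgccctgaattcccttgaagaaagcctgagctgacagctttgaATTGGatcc
Grm2: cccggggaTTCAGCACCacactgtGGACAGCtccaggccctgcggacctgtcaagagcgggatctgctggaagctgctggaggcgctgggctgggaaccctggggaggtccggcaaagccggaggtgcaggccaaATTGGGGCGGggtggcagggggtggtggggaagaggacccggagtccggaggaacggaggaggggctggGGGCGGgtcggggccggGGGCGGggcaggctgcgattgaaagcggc
The Grin1 window held none of the motifs, with 27 CpG and a GC content of 58.8%. The Gabra3 window held 1 Y-box core and 1 TATA box, and it had no CpG, with a GC content of 42.4%. The Grm2 window held 1 Y-box core, 3 GC boxes and 1 match to each RE1 part, and the Y-box core shares letters with the first GC box. The RE1 parts were matched separately, and whether their spacing is that of an intact element was not tested. Among 11303 tested genes with an entry, the Y-box core was in 36.5% of such windows, the GC box in 58.7%, the CRE in 2.68%, the TATA box in 6.31%, the RE1 left part in 0.327% and the right part in 6.13%. Among the 25 tested receptor genes with an entry, 8 had the Y-box core, 15 the GC box and 4 the TATA box, and their median GC content was 62.4%, against 60.0% in all. The RE1 left part was in 1 of the 25, Grm2 itself, the right part in 4 and the CRE in 0.

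AMPA subunits carry most fast excitatory current, and the subunit encoded by Gria2, once edited, keeps calcium out of the channel. Gria2 was the most abundant AMPA transcript, at 24.5 ± 5.48 TPM in Ctrl and 21.7 ± 4.58 in cKO (SD, n = 3), ahead of Gria4 at 9.20 ± 1.08 and 8.56 ± 0.612. Gria3 and Gria1 were close to each other in Ctrl, at 4.62 ± 0.41 and 3.94 ± 0.466 TPM.

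Gria1 (gene identifier 14799, chromosome 11, 57011571 to 57330244), the GluA1 subunit, stood at 10.8, 12.3 and 12.9 CPM in Ctrl replicates 1 to 3 and at 16.8, 17.2 and 15.6 in cKO. All 3 cKO libraries were above all Ctrl libraries. The log2 fold change was 0.47 (SE 0.10), or 1.38-fold, at an adjusted p of 0.0715 in edgeR, and with the block Gria1 rose (adjusted p 0.0094). The same-numbered pairs differed by 0.63, 0.49 and 0.28 on the log2 scale. In the blocked model the call was lost without both libraries numbered 2 (log2 fold change 0.45, edgeR adjusted p 0.054).

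Gria2 (identifier 14800, chromosome 3, 80681450 to 80804227) stood at 70.5, 95.5 and 96.4 CPM in Ctrl and at 65.9, 78.7 and 83.0 in cKO. The groups overlapped, because Ctrl replicate 1 lay below cKO replicates 2 and 3, while each cKO library lay below the Ctrl library of its own number. The log2 fold change was -0.20 (SE 0.12, edgeR adjusted p 0.611), and with the block Gria2 fell (SE 0.05, adjusted p 0.0441). That call was lost with library totals as the scaling and without both libraries numbered 2 or 3 (blocked edgeR adjusted p 0.0778, 0.463 and 0.0782). The unblocked value was -0.11 without cKO replicate 1, -0.13 without Ctrl replicate 3 and -0.34 without Ctrl replicate 1. Gria4 (log2 fold change -0.13, SE 0.09) and Gria3 (-0.06, SE 0.09) did not pass in either model.

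Within each library the Gria1 share of AMPA subunit TPM, which does not depend on scaling between libraries, was 10.1%, 9.14% and 8.99% in Ctrl and 15.7%, 13.7% and 12.7% in cKO. The Gria2 share was 54.0%, 58.5% and 60.1% in Ctrl and 48.5%, 54.7% and 57.2% in cKO, with overlap between the groups. The shares of Gria3 and Gria4 lay within 1 SD of each other between groups.

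**Figure D3:**
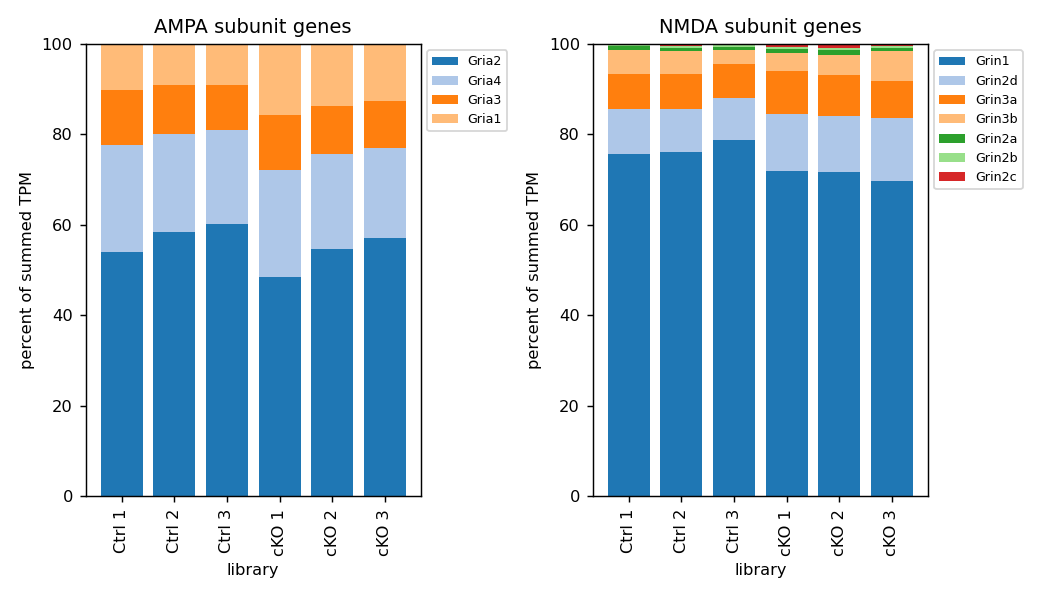
Share of each subunit gene in the summed TPM of its family (percent, bars from 0 to 100) for the AMPA and NMDA genes in each library. The Gria1 band is thicker in the cKO libraries (12.7% to 15.7% against 8.99% to 10.1%), and the Grin1 band is shorter (69.7% to 71.9% against 75.7% to 78.9%).

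Kainate receptors are found on small-diameter sensory neurons, where GluK1, the product of Grik1, is the prominent low-affinity subunit and GluK5, the product of Grik5, a high-affinity partner. Grik5 led this family, at 63.6 ± 4.72 TPM in Ctrl and 69.0 ± 11.8 in cKO (SD, n = 3). Grik1 stood at 21.5 ± 2.15 and 20.7 ± 3.59, Grik4 at 10.2 ± 1.15 and 11.2 ± 1.34, Grik2 at 7.74 ± 1.04 and 7.87 ± 0.764, and Grik3 near 1. None of the 5 was called by edgeR in either model, and without the block 0 had an unadjusted p under 0.05. Their log2 fold changes ran from -0.06 for Grik1 (SE 0.10) to 0.15 for Grik3 (SE 0.21), with 0.09 for Grik5 (SE 0.09) and 0.12 for Grik4 (SE 0.10). Grik1 made up 20.1% to 21.3% of kainate subunit TPM in Ctrl and 18.4% to 19.1% in cKO. The groups did not overlap in this share, although they overlapped in the CPM of Grik1.

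NMDA receptors need the GluN1 subunit, encoded by Grin1, together with a GluN2 or GluN3 subunit. Grin1 was at 21.0 ± 1.52 TPM in Ctrl and 16.8 ± 2.01 in cKO (SD, n = 3), far above its partners. Grin2d stood at 2.63 ± 0.183 and 3.06 ± 0.478, Grin3a at 2.08 ± 0.194 and 2.10 ± 0.213 and Grin3b at 1.23 ± 0.333 and 1.21 ± 0.434. Grin2a, Grin2b and Grin2c, whose products are major partners in the adult brain, were at or below 0.28 TPM in every library.

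Grin1 (identifier 14810, chromosome 2, 25291177 to 25319187) stood at 44.4, 47.1 and 44.7 CPM in Ctrl and at 33.2, 37.7 and 36.3 in cKO. Every cKO library lay below every Ctrl library. The log2 fold change was -0.35 (SE 0.07), with an edgeR adjusted p of 0.0719, and with the block Grin1 fell (SE 0.06, adjusted p 0.0036). The pairs numbered 1 to 3 differed by -0.42, -0.32 and -0.30. Grin1 also passed in the blocked model without both libraries of any one number (edgeR adjusted p 0.00168, 0.0263 and 0.00161 for numbers 1, 2 and 3) and with library totals (0.00542). It was the only one of the 6 to pass in all of these. An antisense transcript, Grin1os, overlaps 13.47% of its exon bases in GENCODE M21, and without known strand handling reads from the pair cannot be told apart.

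As a share of NMDA subunit TPM, Grin1 went from 75.7%, 76.0% and 78.9% in Ctrl to 71.9%, 71.7% and 69.7% in cKO, and Grin2d from 10.01%, 9.61% and 9.30% to 12.6%, 12.4% and 13.9%. Shares within a family are relative, so a lower Grin1 share raises those of the other genes. The Grin3a share also separated, at 7.39% to 7.79% in Ctrl and 8.20% to 9.46% in cKO. The log2 fold change of Grin2d itself was 0.26 (SE 0.14, edgeR adjusted p 0.572; 0.323 with the block), and that of Grin3a 0.0034 (SE 0.12). Grin2d was highest in cKO replicate 3, at 8.40 CPM against 5.82 to 7.53 in the other 5. Grin3b (named after its values were seen) was 3.09 CPM there and 1.65 to 2.91 in the other 5, and cKO minus Ctrl in its 3 pairs was -0.70, -0.32 and 0.90 on the log2 scale. That library also held 26 counts of Lhx1 and 17 of Pax2, transcription factor genes of spinal cord interneurons, where the others held 0 to 2. The 12 spinal cord markers listed summed to 4.49 to 5.38 TPM in Ctrl and 6.18 to 7.54 in cKO, and Mnx1, Lhx5 and Nkx2-2 were at 0 counts in 5 of the 6 libraries. Pax6, a spinal cord progenitor gene, was higher in cKO in both models, where Ctrl held 3, 3 and 4 counts and cKO 13, 18 and 15 (edgeR adjusted p 0.0449). Of the 3 spinal cord markers tested, 2 had positive log2 fold changes. The negative one was Nkx6-1 (-0.15, SE 0.29), with 16 counts in cKO replicate 3 and 19 to 30 in the other libraries. The part of the spinal cord markers in the receptor values was not tested. Grin3b shares 32.1% of its exon bases with Tmem259 on the other strand, so its counts are uncertain.

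The delta receptors are related channels that bind cerebellin proteins across the synapse. Grid1 stood at 1.86 ± 0.133 TPM in Ctrl and 2.10 ± 0.262 in cKO (SD, n = 3). It was not called, with a log2 fold change of 0.11 (SE 0.16).

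Among metabotropic glutamate receptors the highest by mean TPM over all 6 libraries were Grm8 (9.03 ± 1.13 TPM in Ctrl and 9.21 ± 1.21 in cKO; SD, n = 3), Grm3 (8.41 ± 0.577 and 7.26 ± 0.711) and Grm7 (4.76 ± 0.824 and 5.87 ± 1.396), with Grm4 (5.16 ± 1.10 and 4.25 ± 0.891) above Grm7 in Ctrl. Grm8 and Grm7 encode presynaptic receptors that lower cyclic AMP, as does Grm4; Grm3 and Grm2 form the other group of receptors that do so. Grm5, which couples to phospholipase C, was scarce, at 0.32 to 0.53 TPM. Grm6, the receptor of retinal bipolar cells, had 1 count in all.

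Grm2 (identifier 108068, chromosome 9, 106644534 to 106656109), named after its values were seen, had the largest difference of any tested member. It stood at 7.50, 4.11 and 5.02 CPM in Ctrl and at 1.38, 1.99 and 3.73 in cKO, from 129, 69 and 82 counts and 24, 34 and 64 counts. Every cKO library was below every Ctrl library, but the size differed between pairs, at -2.44, -1.05 and -0.43 for numbers 1, 2 and 3. The log2 fold change was -1.23 (SE 0.31) and passed neither without the block (edgeR adjusted p 0.136) nor with it (0.101). DESeq2 called it (adjusted p 0.0154), and in edgeR it passed without cKO replicate 3 (log2 fold change -1.72, adjusted p 0.0462). In the blocked model it passed without both libraries numbered 1 (-0.69, edgeR adjusted p 0.0198) or 3 (-1.76, 0.000315). Of its exon bases, 9.60% lie under an antisense transcript. Grm3 did not overlap between groups either, at 15.01 to 16.7 CPM in Ctrl and 13.0 to 14.1 in cKO (log2 fold change -0.22, SE 0.09, edgeR adjusted p 0.419; 0.193 with the block). Grm7 had a log2 fold change of 0.30 (SE 0.15; adjusted p 0.524 in edgeR and 0.105 with the block), Grm8 one of 0.0048 (SE 0.10), and cKO was above Ctrl in all 3 pairs for Grm7 only. Without cKO replicate 2 the Grm7 value was 0.13. The Grm7 share of the family's TPM was 14.3% to 17.2% in Ctrl and 19.3% to 22.7% in cKO.

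GABA-A channels usually join 2 alpha, 2 beta and a gamma subunit. Among the alpha subunits, Gabra3 stood at 20.4 ± 1.49 TPM in Ctrl and 17.1 ± 0.454 in cKO, Gabra5 at 9.62 ± 0.0635 and 7.43 ± 0.805 and Gabra2 at 3.55 ± 0.969 and 3.10 ± 0.443 (SD, n = 3). Gabra4, Gabrb1, Gabrb2, Gabrg1 and Gabrg3 were at or below 1.34 TPM in every library.

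Of these 11 genes, 9 were negative on the log2 scale (median -0.19), and 3 fell in the blocked model, Gabra3 and Gabra5 among them. Gabra3 (identifier 14396, chromosome X, 72432676 to 72656919) stood at 38.5, 41.1 and 39.6 CPM in Ctrl and at 34.7, 32.1 and 32.6 in cKO. Its log2 fold change was -0.26 (SE 0.07, edgeR adjusted p 0.165; 0.0277 with the block). Gabra5 (identifier 110886, chromosome 7, 57407669 to 57591016) stood at 14.4, 13.6 and 13.2 CPM in Ctrl and at 10.2, 10.98 and 10.3 in cKO, which is -0.39 on the log2 scale (SE 0.10; adjusted p 0.119 in edgeR and 0.0288 with the block). For both genes every cKO library lay below every Ctrl library. As a share of GABA-A subunit TPM, Gabra5 held 8.14% to 9.09% in Ctrl and 6.97% to 7.33% in cKO, without overlap, and Gabra3 17.6% to 18.2% and 15.4% to 17.7%.

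These calls depended on the pairs used. In the blocked model Gabra5 did not pass without both libraries of any one number (edgeR adjusted p 0.0671, 0.0908 and 0.0538 without numbers 1, 2 and 3). Gabra3 did not pass without number 2 (0.305). An antisense transcript overlaps 4.98% of the exon bases of Gabra5.

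**Figure D4:**
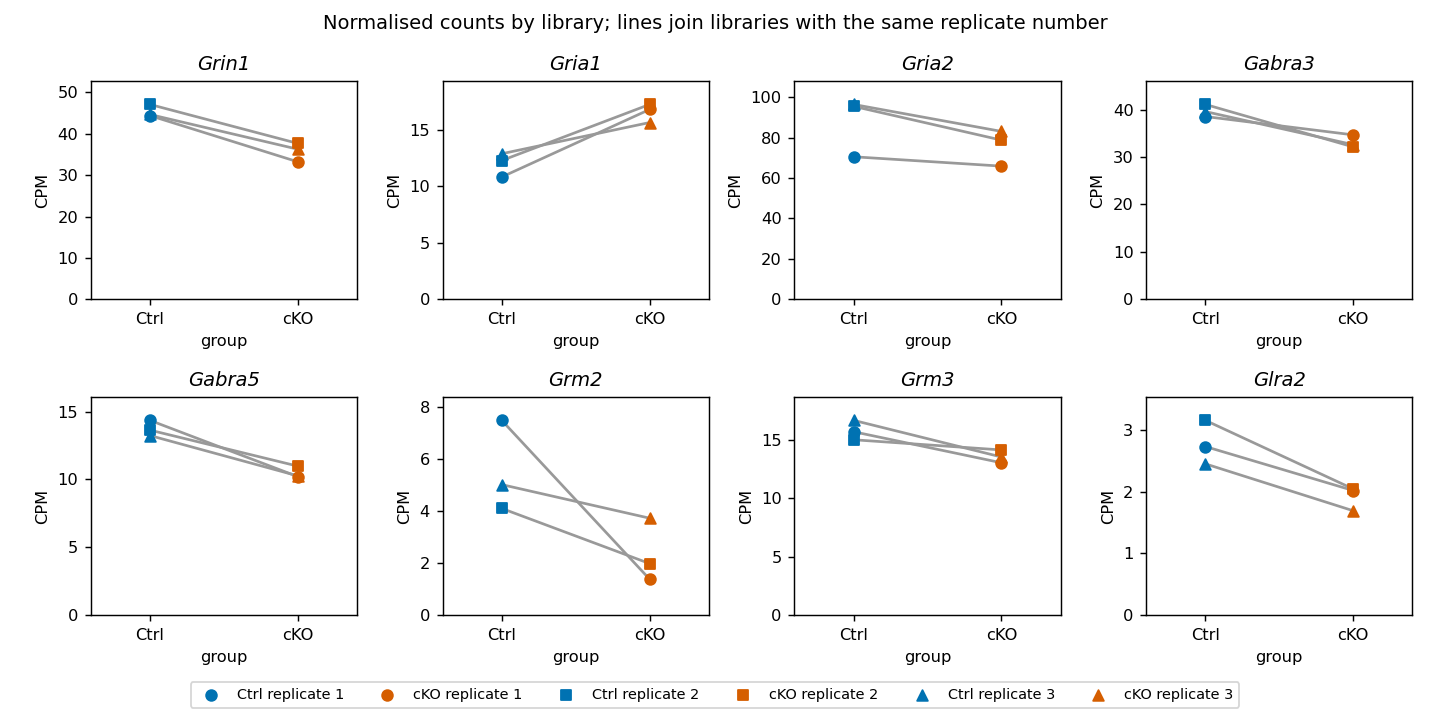
CPM (library-size normalised counts) of 8 receptor genes in Ctrl and cKO, with lines joining the libraries of the same replicate number. All 3 lines rise for Gria1 and all 3 fall for the other 7 genes. The Gria2 groups overlap because Ctrl replicate 1 is at 70.5, and the Grm2 lines differ most in slope. The genes were picked with their values known, and the pairs of others, such as Gabbr2 and Glrb, differed in sign.

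GABA-A genes lie in chromosomal clusters, and differences between genes of a cluster were not tested. On chromosome 7, Gabrg3 and Gabra5 lie between 56716463 and 57591016, with mean levels of 1.06 and 8.53 TPM and log2 fold changes of -0.17 (SE 0.17) and -0.39 (SE 0.10). On chromosome 11, Gabrb2 had a mean of 0.847 TPM and a log2 fold change of 0.19 (SE 0.18). The 4 genes on chromosome 5, Gabrg1, Gabra2, Gabra4 and Gabrb1, had 0.445 to 3.33 TPM and log2 fold changes from -0.32 to -0.16, none of them called, with SEs of 0.17 to 0.35.

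GABA-B needs both subunits, GABA-B1 to bind the ligand and GABA-B2 to reach the cell surface and signal. Gabbr1 stood at 190.4 ± 15.1 TPM in Ctrl and 174.9 ± 28.4 in cKO, and Gabbr2 at 35.04 ± 1.51 and 36.6 ± 7.42 (SD, n = 3). Gabbr1 had 446, 489 and 457 CPM in Ctrl and 369, 441 and 449 in cKO. The cKO libraries were below Ctrl in each pair, by 0.27, 0.15 and 0.02 on the log2 scale, but the groups overlapped. Its log2 fold change was -0.14 (SE 0.09, edgeR adjusted p 0.634; 0.111 with the block), and it passed in the blocked model without both libraries numbered 3 (-0.21, adjusted p 0.0204), while without cKO replicate 1 its unblocked value was -0.059. Gabbr2 had a log2 fold change of 0.04 (SE 0.10), a sign that turned without cKO replicate 2 (-0.07).

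Of the glycine receptor genes, Glrb, the beta subunit that binds the scaffold gephyrin, and Glra2, the alpha subunit of embryonic neurons, were tested. Glrb stood at 7.01 ± 1.28 TPM in Ctrl and 6.72 ± 0.439 in cKO and had a log2 fold change of -0.07 (SE 0.13). Glra2 had 2.73, 3.16 and 2.45 CPM in Ctrl and 2.02, 2.04 and 1.69 in cKO, with every cKO library below every Ctrl library. The log2 fold change of Glra2 was -0.53 (SE 0.20, edgeR adjusted p 0.334; 0.153 with the block), on 29 to 53 counts per library. Glra1, Glra3 and Glra4 had 0 to 4 counts per library and were not tested, nor were Grin2c (3 to 8 counts) and Grm6. A count of 0 allows up to 0.172 to 0.182 CPM at these depths (3 counts, counting error only).

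Many of the receptor genes were long, a feature that the choice by symbol did not use. The median span of the 38 tested genes was 224 kb, against 24.9 kb over all tested genes with a span, and 68.4% were longer than 100 kb, against 15.4%. Among all tested genes over 100 kb the median log2 fold change was -0.01, and with the block 5.46% were lower and 1.87% higher. The 26 receptor genes of that length had a median of -0.01, with 11.5% lower and 3.85% higher, and the 12 shorter ones a median of -0.15, with 16.7% lower and 0% higher. Together these shares rest on only 1 higher and 5 lower receptor genes. Over all tested genes with a span, 3.55% were lower and 1.77% higher. The share over all tested genes up to 100 kb was not computed, and a difference by length was not tested.

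The wider pathway was described by 73 listed genes, of which 62 were tested. Without the block 1 was called, and with it 9 were lower and 0 higher, against 3.56% and 1.76% of all tested genes. Their median log2 fold change was -0.07. Vesicular glutamate transport was represented by Slc17a6 at a mean of 80.2 TPM (log2 fold change -0.13, SE 0.07, not called), while Slc32a1, Gad1 and Gad2, which load and make GABA in inhibitory neurons, had 0 to 11 counts in each library (named after their values were seen). The chloride importer gene Slc12a2 was at 30.5 TPM and the exporter gene Slc12a5 at 1.08, and neither was called (log2 fold changes 0.09 and -0.11).

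The called gene without the block was Cbln2, a cerebellin that binds neurexins and delta receptors. It stood at 73.5, 67.6 and 62.6 CPM in Ctrl and at 53.9, 50.7 and 49.9 in cKO, which is -0.40 on the log2 scale (SE 0.08; adjusted p 0.0496 in edgeR and 0.000686 with the block). All cKO libraries were below all Ctrl libraries. The call of Cbln2 lay at the threshold: it was lost with DESeq2 size factors, library totals, limma-voom and a filter of 1 CPM, and without any single library except cKO replicate 1. Cbln4 fell with the block (log2 fold change -0.87, SE 0.21, edgeR adjusted p 0.0343), on 22 to 52 counts per library, and Cbln1 did not pass (-0.22, SE 0.10).

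Among genes that act on receptors, Cnih2, an AMPA receptor export and gating partner, fell with the block. It had 103, 90.03 and 85.0 CPM in Ctrl and 72.4, 67.9 and 70.2 in cKO (log2 fold change -0.40, SE 0.08, edgeR adjusted p 0.0594; 0.000754 with the block). Shisa7, a receptor-associated membrane protein gene, also fell with the block (-0.22, adjusted p 0.0346), and the other 11 tested auxiliary genes of the ionotropic glutamate receptors did not pass, among them Cacng7, a TARP gene, at 75.0 TPM. Of 18 scaffold genes, Dlg4, which encodes PSD-95 (-0.25 on the log2 scale, adjusted p 0.0159 in the blocked edgeR model), and Nlgn2, the neuroligin of inhibitory synapses (-0.29, 0.0041), fell with the block. The glial glutamate transporter gene Slc1a2 (-0.39, 0.00497), the neutral amino acid transporter gene Slc1a4 (-0.24, 0.0109) and Abat, which breaks down GABA (-0.18, 0.0428), completed the 9. Glul, which makes glutamine from glutamate, was at 131 TPM and was not called (log2 fold change -0.13). None of the 8 genes listed as auxiliary to the GABA receptors, a list without Shisa7, was called by edgeR in either model. At an unadjusted p under 0.05, 0 of these were higher and 1 lower, and Gabarap was highest at 703 TPM.

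Markers of the cells in the ganglia moved beside these values. Of 11 sensory neuron markers, 3 were lower and 0 higher with the block (Isl1, Ntrk2 and Avil), with a median log2 fold change of -0.08. Of 8 markers of Schwann cells and satellite glia, 4 were higher and 0 lower with the block, and all 8 had positive values (median 0.19). Their summed TPM was 2372 to 2413 in Ctrl and 2505 to 2542 in cKO, without overlap, whereas that of the sensory neuron markers overlapped. A few genes set these sums. Tubb3 (mean 3266 TPM) and Prph (1961) made up most of the neuronal sum, and Fabp7 (1847, log2 fold change 0.015) most of the glial sum. In CPM the groups did not overlap for 3 of the 11 neuronal markers, all lower in cKO (background 8.77%). The same held for 3 of the 8 glial markers, all higher (background 7.83%). None of the markers in either list was at 0. Macrophage markers summed to 125 to 146 TPM in Ctrl and 157 to 220 in cKO. The part of the glial, neuronal and macrophage values in the receptor differences was not tested. Without both libraries numbered 1, which include the one rich in erythroid RNA, 6 receptor genes passed with the block (background 8.72%), Gabra5 being lost and Grm2 gained, and 5 passed without it (background 5.09%), among them Gria1, Gria2, Grin1 and Gabra3.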

How the data were processed

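RNA-seq libraries of 3 cKO and 3 Ctrl samples were analysed. Per the labels' protocols, Trizol was used for the RNA and an mRNA kit for the libraries; the sources used here do not give strand handling. HISAT2 2.2.1, Bowtie2 2.4.5 and RSEM 1.3.1 are listed with the build GRCm38 (mm10), per the submitters' processing notes, without their roles. The authors deposited estimated counts, TPM and FPKM values per gene and library; the deposited FPKM values were not used, and their group means were not used either. TPM, which is per length, gives levels here, and counts give differences. The libraries held 16464264 to 17446385 counts.

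Estimated counts were rounded to whole numbers. The filterByExpr function of edgeR 4.0.16 (R 4.3.3) kept 14338 of 17971 genes. The main test was edgeR's quasi-likelihood F test, in its robust form, on TMM-scaled counts, two-sided, with Benjamini-Hochberg adjustment over all 14338 genes and a threshold of 0.05. SEs come from the fold change and its F statistic. The fit recovered known changes when tested on simulated data. CPM are counts scaled by TMM library sizes. Titles number the libraries 1 to 3 in both groups and the controls are littermates. The sample descriptions give the libraries of each number the same prefix. Each library's deviation from its group mean correlated across genes with that of the same number in the other group, at 0.383, 0.22 and 0.189 (different numbers -0.316 to 0.181). Deviations cancel out within a group, so these correlations are not independent. That of cKO replicate 3 with Ctrl replicate 2 (0.181) was close to that with Ctrl replicate 3 (0.189). The numbers were taken as pairs. Values with the replicate number as a block are given where they change a call, and for some genes whose call they did not change.

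The receptor genes and all lists were chosen with earlier results of these data known. Named genes were those called with or without the block, the 3 highest by TPM of the larger families and all members of the small ones; other members are given for completeness, and in the wider list the called genes and the 2 with the highest TPM per sublist. Alternatives were the scalings and tests of DESeq2 1.42.0 and limma 3.58.1, TPM with pseudocounts of 1 and 0.1, other filters, the block and leaving out libraries. Coordinates and promoters are from the RefSeq tables of GRCm38.p6, where all 44 receptor genes matched, and exon overlaps from GENCODE M21. Some receptor genes are included in counts and sums but are not reported here by name.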

Additional observations from a re-analysis of the deposited data

How the results depend on the processing

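Where a value moved, the cause was not tested. Without the block, edgeR called 69 genes, and with the replicate block 764. The count was 44 with library totals, 172 with DESeq2, 10 and 12 with limma on TPM at pseudocounts of 1 and 0.1, and 128 with no filter on low counts. It ran from 18 (without Ctrl replicate 3) to 104 (without cKO replicate 1) when 1 library was left out. The settings that follow were chosen after seeing the data. The blocked model called 731 with DESeq2 size factors, 799 with library totals, and 1252, 260 and 836 without both libraries numbered 1, 2 and 3; the model without the block called 731 without both numbered 1.

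Receptor genes called went from 0 to 6 with the replicate block, 2 with DESeq2, 2 with no filter, and 0 to 1 with 1 library left out. The blocked model called 6 with DESeq2 size factors, 5 with library totals, and 6, 1 and 5 without numbers 1, 2 and 3, and the model without the block called 5 without number 1. Related genes called went from 1 to 9 with the replicate block, to 0 with DESeq2 size factors, library totals, limma-voom, limma on TPM and a minimum of 1 CPM, to 2 with DESeq2 and with no filter, and to 0 to 2 with 1 library left out. The blocked model called 9, 7, 10, 3 and 8 of them in the same 5 settings, and the model without the block called 8 without number 1.

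The median log2 fold change of the receptor genes stayed negative in every setting run, from -0.11 (without Ctrl replicate 1) to -0.0098 (without cKO replicate 1). Signs turned in these genes near 0. Grin3a was -0.00017 with no filter, -0.0057 in the blocked model without number 3 and -0.057 to 0.063 with 1 library left out. Grm8 was -0.039 without number 1, -0.041 there with the block, -0.0078 in the blocked model without number 2, and -0.073 to 0.068 with 1 library left out. Gabbr2 was -0.063 in the blocked model without number 2 and -0.072 to 0.15 with 1 library left out. In the blocked model without number 3, Glrb was 0.11 and Grid1 -0.048. With 1 library left out, Glrb ran from -0.17 to 0.045 and Grik1 from -0.13 to 0.036. Genes at a few counts, such as Glra1 and Grm6, were kept out of the tests by the filter on low counts.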
